A study of Mus musculus with 31 samples.

Results

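The genes described here encode nuclear-encoded subunits of respiratory complexes II, III, IV and V and the electron carrier cytochrome c, measured in the colon of mice on a low-fat diet (LFD) or a high-fat diet (HFD). A gene was taken where its symbol was Sdha, Sdhb, Sdhc, Sdhd, Cyc1 or Cycs, or began with Uqcr, Atp5 or Cox followed by a digit from 4 to 8, and where a probe set carried that symbol alone. This gave 47 of the 18820 genes on the array: 4 of complex II, 8 of complex III, cytochrome c, 17 of complex IV and 17 of complex V. For the 17 of these genes with several probe sets, the probe set with the highest mean over all arrays was used. Of the 47 genes, 46 were among the 12795 genes bright enough to be tested, meaning a log2 signal of at least 4.32 on 3 or more of the 31 arrays. The 1 left out, Cox7b2, was under that minimum on every array, with a mean of 2.53. The set has no subunit encoded by mitochondrial DNA, of which 0 of 6 were measured under a symbol of their own. It also lacks Cox7c and Uqcrc2, whose probe sets carry a further symbol.

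The mice were male C57Bl/6J, 13 weeks old and housed singly. Their diets took either 10% (LFD) or 45% (HFD) of energy from fat, with palm oil as the fat type. On each of 6 days, under light anaesthesia, they received 80 µL of saline or of 100 mM sodium acetate, sodium propionate or sodium butyrate through the rectum, and the colon was scraped 4 h after the last infusion. Saline on the same diet was the control of each acid. Each diet and infusion group had 4 arrays except acetate on LFD, which had 3, and each array measured RNA from scrapings, a mixture of epithelium and other cells. The labels name 6 mice per group but do not tie the arrays to mice, so the p-values measure only the spread between these RNA samples. The question set by the design was whether the response of colonic genes to the infused acids depends on dietary fat.

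Oxidative phosphorylation works as a chain in the inner mitochondrial membrane. Complex II (succinate dehydrogenase) passes electrons from succinate to coenzyme Q, complex III passes them from coenzyme Q to cytochrome c, and complex IV (cytochrome c oxidase) passes them from cytochrome c to oxygen. Complex V (ATP synthase) lets protons flow back through its membrane ring and uses that flow to make ATP. Colonic epithelial cells are known to oxidise butyrate from bacterial fermentation as a main fuel, which places this machinery close to the infused compounds. Transcription of its nuclear genes is known to involve the factors NRF1, GABP (of the ETS family), CREB and YY1.

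The promoters are shown for 4 genes named in the results below. Cycs was the single gene called lower on HFD over all infusions, and Cox7a2l had the largest difference between the diets under propionate. Cox6a1 and Atp5k were among the leading genes of comparisons within HFD and hold an NRF1 match, but neither passed the threshold. Each run is the 250 bases before the transcription start in the RefSeq annotation of GRCm38.p6, printed 5′ to 3′ on the minus strand, at chr6:50566570-50566819 for Cycs, chr17:83514334-83514583 for Cox7a2l, chr5:115348959-115349208 for Cox6a1 and chr5:108434400-108434649 for Atp5k. Capitals mark a motif match on either strand.
Cycs: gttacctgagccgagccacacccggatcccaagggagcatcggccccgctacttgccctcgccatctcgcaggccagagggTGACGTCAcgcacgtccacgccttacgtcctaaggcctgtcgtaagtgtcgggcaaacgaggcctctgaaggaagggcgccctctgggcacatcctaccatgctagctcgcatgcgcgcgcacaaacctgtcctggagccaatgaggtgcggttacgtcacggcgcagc
Cox7a2l: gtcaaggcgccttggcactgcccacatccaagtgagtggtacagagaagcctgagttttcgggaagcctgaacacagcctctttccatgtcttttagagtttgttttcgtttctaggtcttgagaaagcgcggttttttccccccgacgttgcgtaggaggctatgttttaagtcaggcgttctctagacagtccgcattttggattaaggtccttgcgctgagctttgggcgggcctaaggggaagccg
Cox6a1: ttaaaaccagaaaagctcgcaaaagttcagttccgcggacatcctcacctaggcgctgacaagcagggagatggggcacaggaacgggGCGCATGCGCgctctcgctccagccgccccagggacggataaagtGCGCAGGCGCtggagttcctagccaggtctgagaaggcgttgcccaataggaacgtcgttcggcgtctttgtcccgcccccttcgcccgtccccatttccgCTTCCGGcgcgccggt
Atp5k: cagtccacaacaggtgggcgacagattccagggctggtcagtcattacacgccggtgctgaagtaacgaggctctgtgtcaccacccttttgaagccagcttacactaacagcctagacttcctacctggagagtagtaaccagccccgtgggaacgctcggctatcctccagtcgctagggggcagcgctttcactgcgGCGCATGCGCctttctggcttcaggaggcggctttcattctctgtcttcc
The capitals in Cycs are a cyclic AMP response element that begins 169 bases before the start. Cox6a1 has NRF1 matches at 162 and 117 bases and an ETS match, read from the other strand, at 16 bases before the start, and Atp5k has an NRF1 match at 50 bases. The window of Cox7a2l holds none of the motifs searched.

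Among the 36 of 47 genes with a promoter entry, 7 held the NRF1 motif, GCGCA and GCGC with any base between, which is 19.4% against 4.23% of 27025 genes with an entry. The ETS motif CCGGAAG was in 9 (25% against 7.83%), the cyclic AMP response element TGACGTCA in 2 (5.56% against 1.77%), the YY1 motif AAGATGGC in 1 (2.78% against 1.83%) and the E-box CACGTG in 4 (11.1% against 6.86%). Both strands were searched, and no motif contains another. Sdha, Sdhd, Atp5c1, Atp5g2 and Atp5h were the other genes with an NRF1 match, and Uqcrfs1 was the other with a cyclic AMP response element. These are letter matches in a fixed window, not measured binding. The shares compared with are over every gene with an entry, not matched to these genes in signal level or base content. The 11 genes without an entry were Sdhc, Cyc1, Uqcrb, Uqcrq, Cox4i1, Cox6c, Cox4i2, Cox6a2, Cox8c, Atp5a1 and Atp5mpl.

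Most of these genes gave a bright and steady signal. Of the 46 tested genes, 43 were above the minimum on all 31 arrays, and their median level was 10.48 on the log2 scale against 7.09 over all genes tested. Their median SD within groups was 0.119, against 0.148 over all genes, with Cox5b lowest at 0.0584 and Cox7a2l highest at 0.230. In the map of deviations, most cells are pale, and the strongest colours lie in the first saline LFD array and in the propionate HFD arrays.

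**Figure D1:**
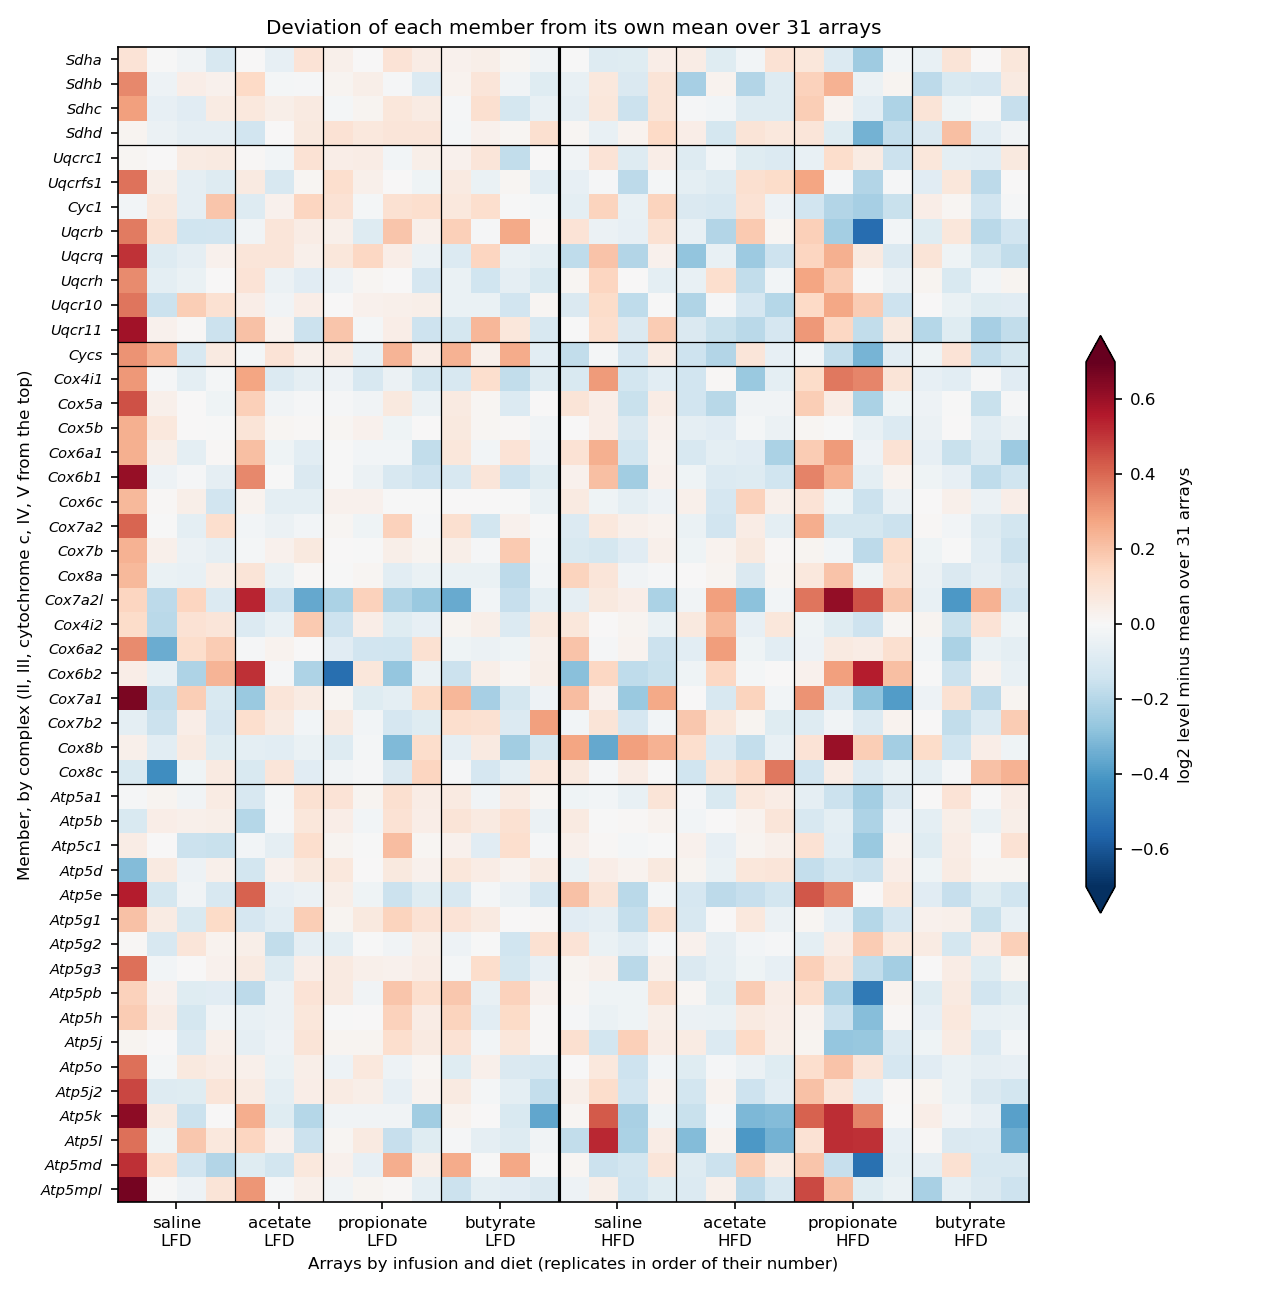
Each row is 1 of the 47 genes and each column 1 of the 31 arrays, grouped by diet and infusion; colour is the gene's log2 level minus its own mean over the arrays, from blue (lower) to red (higher). The first saline LFD array is red for most rows. All propionate HFD columns are red for Cox7a2l and blue for Cyc1 and Atp5a1. Atp5k and Atp5l are red there except in propionate HFD 4, and Sdhd is blue except in propionate HFD 1.

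The 4 genes of complex II had means over the 31 arrays of 10.86 for Sdha, the flavoprotein, 9.97 for Sdhb, the iron-sulfur subunit, and 9.97 and 10.19 for the membrane anchors Sdhc and Sdhd. In complex III, means ran from 7.92 for Uqcrfs1, the Rieske iron-sulfur protein, to 11.38 for Uqcrb, and Cyc1, which carries the haem that reduces cytochrome c, was at 10.41. Cycs, cytochrome c itself, was at 11.83. The 9 common subunits of complex IV lay between 9.46 (Cox5a) and 12.25 (Cox6c). In complex V, the 2 subunits of the F1 head, Atp5a1 and Atp5b, were at 11.73 and 12.10, and the 3 genes for the identical mature subunit c of the membrane ring were at 11.63 (Atp5g1), 11.29 (Atp5g2) and 10.68 (Atp5g3). These signals depend on each probe set, so their order is not an order of transcript amounts.

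Complex IV has paralogues that in other tissues are limited to muscle, testis or lung, and most of them were near the minimum here. Cox4i2, the lung and hypoxia form of Cox4i1, had a mean of 4.34 and was above the minimum on 17 arrays, whereas Cox4i1 had a mean of 10.81. Cox8b, a heart and muscle form, was above it on 5 arrays (mean 4.18) and Cox8c, a testis form, on 3 (mean 4.15), with Cox8a at 11.49. Cox6a2, a heart and muscle form, and Cox6b2, a testis form, were dim on all arrays, at 5.13 and 4.85, with their common partners Cox6a1 and Cox6b1 at 10.60 and 11.18. Cox7a1, known from heart and muscle, was the exception, at 8.96 with arrays from 8.57 to 9.62. Its partner Cox7a2 was at 9.96, and Cox7b, the partner of Cox7b2, was at 12.02.

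A few arrays stood apart. In the first saline LFD array, 41 of the 46 genes were above the mean of the other 3 saline LFD arrays, by a median of 0.26, while the same median over all genes tested was -0.02, and 27 of the 46 had their highest level of all arrays there. The mean over the 46 genes was 10.09 in that array and 9.81 to 9.84 in the rest of its group. The third propionate HFD array held the lowest level of 16 of the 46. The 12 tested markers of colonic epithelium were bright throughout, with array means from 11.31 to 11.56. A list of 15 small-intestinal lipid absorption genes stood at 7.74 to 8.14 on 4 arrays (saline LFD 2 and 3, the second of propionate LFD and the second of saline HFD), compared with 6.05 to 6.46 elsewhere, and 8 smooth muscle genes were highest in saline HFD 1 and 2, at 7.04 and 6.74, against 4.77 to 6.12.

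Cycs was the single gene of the 46 that differed between the diets over all 4 infusions, and it was lower on HFD. Over 15 LFD arrays its log2 level ran from 11.71 through a median of 11.89 to 12.14, and over 16 HFD arrays from 11.50 through a median of 11.73 to 11.92. The ranges overlapped, but 15 of 16 HFD arrays lay below the LFD mean. The difference, averaged over the infusions, was -0.17 ± 0.0464 (SE), or -11.4% (limma, adjusted p = 0.0401). By infusion the difference for Cycs was -0.18 under saline, -0.12 under acetate, -0.22 under propionate and -0.17 under butyrate, none past the threshold alone. The call was 1 of 46 genes, or 2.17%, where 2.7% of all genes tested were called.

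Beyond Cycs the differences with diet were small and mostly on the lower side. Of the 46 genes, 35 had a difference below 0, which is 76.1% against 47.6% of all genes tested, and the median was -0.04 against 0.01. This was not particular to the 46, since 36 of 41 genes of respiratory complex I and 71 of 74 mitochondrial ribosomal protein genes were also below 0. Cyc1 (-0.10 ± 0.0341, adjusted p = 0.0948), Atp5g1 (-0.10 ± 0.0361, 0.114), Cox5b (-0.07 ± 0.0247, 0.117) and Cox7b (-0.07 ± 0.0321, 0.218) came next by limma and did not pass. Atp5g1 ran from 11.51 to 11.83 on LFD and from 11.43 to 11.74 on HFD, so the diets overlapped, while Atp5g2 and Atp5g3 differed by 0.04 and -0.07. All 4 genes of complex II had differences between -0.06 and -0.03, and 15 of the 17 of complex V were below 0. At an unadjusted p under 0.05 there were 5 of 46 genes (10.9%), where all genes tested gave 21.7%. Fewer cells of a type and less RNA per cell cannot be told apart in scrapings. The call on Cycs was lost without the first saline LFD array, when its difference was -0.16, and in 19 of 31 cases of leaving out a single array. Leaving out saline HFD 1 and 2, the arrays rich in smooth muscle transcripts, also ended it, at -0.17.

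Under propionate the diets differed in 5 of the 46 genes, and these moved in opposite directions: the F1 subunit Atp5a1 and the complex III subunit Cyc1 were lower on HFD, whereas Cox7a2l, Cox4i1 and Cox6b2 of complex IV were higher. The share called was 10.9% of the 46 genes against 6.87% of all genes tested. Higher calls were 6.52% of the 46 and 2.05% of all genes, and lower calls 4.35% and 4.82%. The 46 genes as a group did not shift, with a median of -0.02, as over all genes.

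Atp5a1, the catalytic-head alpha subunit, read 11.83, 11.75, 11.84 and 11.78 on LFD with propionate and 11.67, 11.58, 11.50 and 11.63 on HFD with propionate. Every HFD array was below every LFD array. The difference was -0.21 ± 0.0506, so the level fell by 13.3% (limma, adjusted p = 0.02). Cyc1 read 10.51, 10.40, 10.52 and 10.53 on LFD and 10.28, 10.21, 10.18 and 10.26 on HFD. The groups did not overlap here either, and the difference was -0.26 ± 0.0669 (adjusted p = 0.0257).

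Cox7a2l, also known as SCAFI, is known for joining complexes III and IV in supercomplexes, but C57Bl/6J mice are known to carry a short, unstable form of the protein that does not support this. Its transcript had the largest difference of the 46. It read 7.85, 8.24, 7.86 and 7.81 on LFD and 8.45, 8.69, 8.52 and 8.26 on HFD with propionate. The second LFD array reached almost the lowest HFD array, without overlap. The difference was 0.54 ± 0.153, or 45.1% higher (limma, adjusted p = 0.0356). A dimmer probe set for Cox7a2l, at a mean of 7.16, gave 0.57 with an adjusted p of 0.0308 in the fit over all probe sets.

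Cox4i1, the common form of a nuclear subunit that bears on regulation of the oxidase by ATP, read 10.77, 10.69, 10.77 and 10.68 on LFD and 10.93, 11.17, 11.15 and 10.89 on HFD with propionate. All HFD arrays were above all LFD arrays, by 0.31 ± 0.0952 (limma, adjusted p = 0.0467). Cox6b2, the testis form of a subunit on the outer face, read 4.33, 4.93, 4.58 and 4.81 on LFD and 4.88, 5.14, 5.40 and 5.06 on HFD. Its groups overlapped, and the difference was 0.46 ± 0.136 (adjusted p = 0.0404) at a level close to the minimum for testing. Its common partner Cox6b1 gave 0.21 (adjusted p = 0.266).

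**Figure D2:**
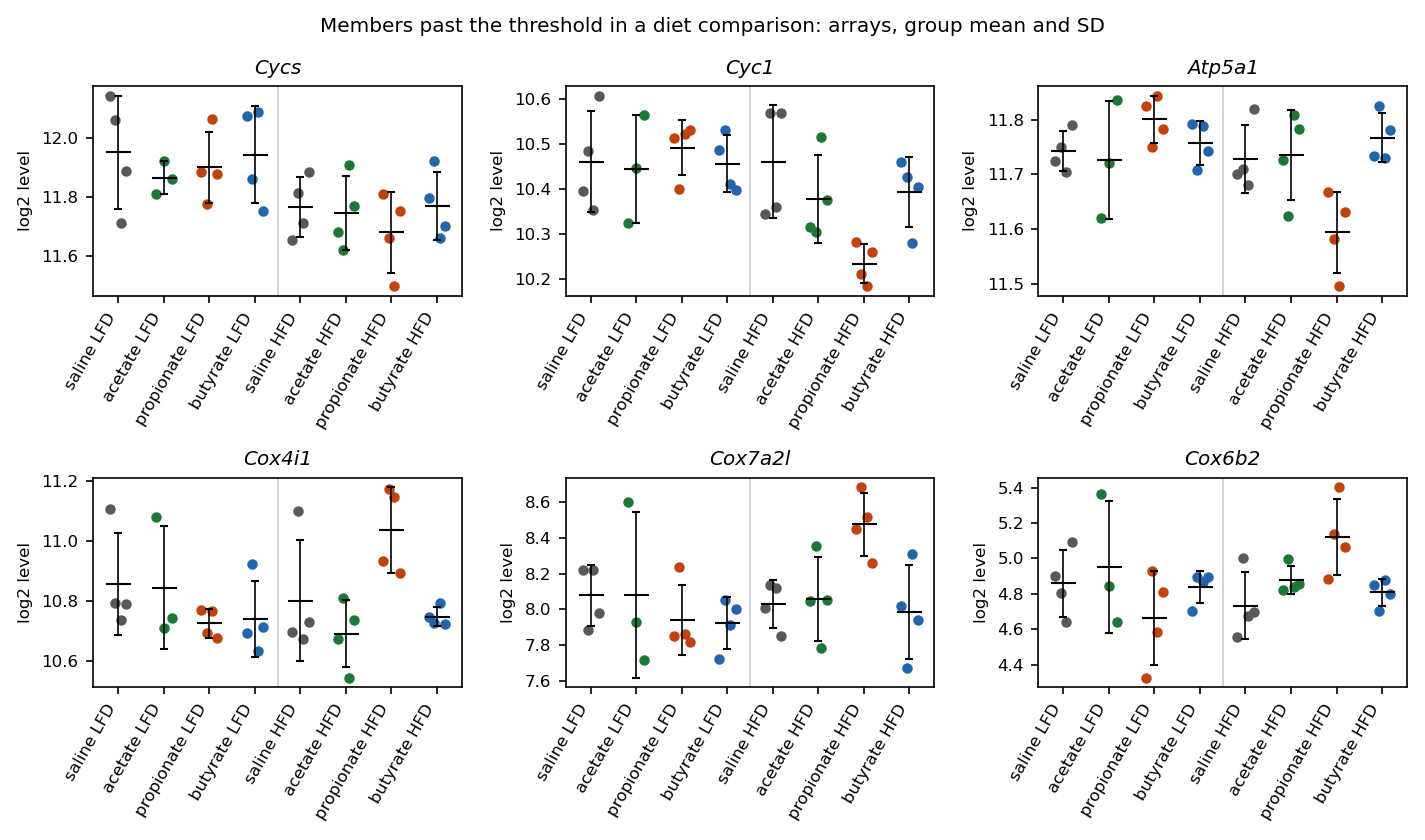
Log2 level (vertical axis) of the 6 genes past the threshold in a diet comparison, with a point per array, the group mean as a horizontal bar and the SD as a whisker, for the 4 infusions on LFD (left of the line) and HFD (right of it). The propionate HFD arrays of Cyc1 lie between 10.18 and 10.28 and those of Cox7a2l between 8.26 and 8.69, whereas Cycs is lower on HFD in a spread that overlaps LFD.

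Within complex V, only Atp5a1 passed, and the differences of the other 16 genes lay on both sides of 0 in the rotor, the ring, the stalk and the small membrane subunits. On HFD with propionate, Atp5b differed by -0.15 (adjusted p = 0.0811), Atp5j of the stalk by -0.21 (0.0535) and the ring gene Atp5g1 by -0.18 (0.122). Atp5b and Atp5g1 had every HFD array below every LFD array. The membrane subunit Atp5k read 7.16, 7.16, 7.16 and 6.94 on LFD and 7.60, 7.70, 7.53 and 7.18 on HFD, a difference of 0.40 without overlap (limma, adjusted p = 0.098), and Atp5l, its neighbour in the membrane, gave 0.31 (0.152). In the rotor, Atp5e gave 0.27 (0.148) and Atp5d -0.14 (0.154), and Atp5o of the stalk gave 0.07 (0.58). Over the complex, 10 of 17 genes were at an unadjusted p under 0.05, where all genes tested gave 24.4%. Of the small membrane subunits 4 of 5 were above 0, and 3 of 4 stalk genes were below it. Over all genes tested, 54.3% were below 0. In complex II, Sdhd gave -0.21 (0.0729), Sdha -0.12 and Sdhc -0.06, whereas Sdhb gave 0.11.

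The 46 differences were spread more widely under propionate than under the other infusions, which was not tested. Their SD was 0.194 under propionate, against 0.0802 under saline, 0.0998 under acetate and 0.0720 under butyrate. All genes tested also differed more under propionate. Their median absolute difference was 0.123 there, against 0.0819 under saline, 0.0895 under acetate and 0.0646 under butyrate. For the 46 genes it was 0.127 under propionate, near that of all genes, and 0.0748, 0.0674 and 0.0466 under the others. In all, 17 of 46 genes (37%) were at an unadjusted p under 0.05, where all genes tested gave 24.4%, and 7 of 46 (15.2%) had groups that did not overlap, where all genes gave 14%. The share without overlap was thus near the background.

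**Figure D3:**
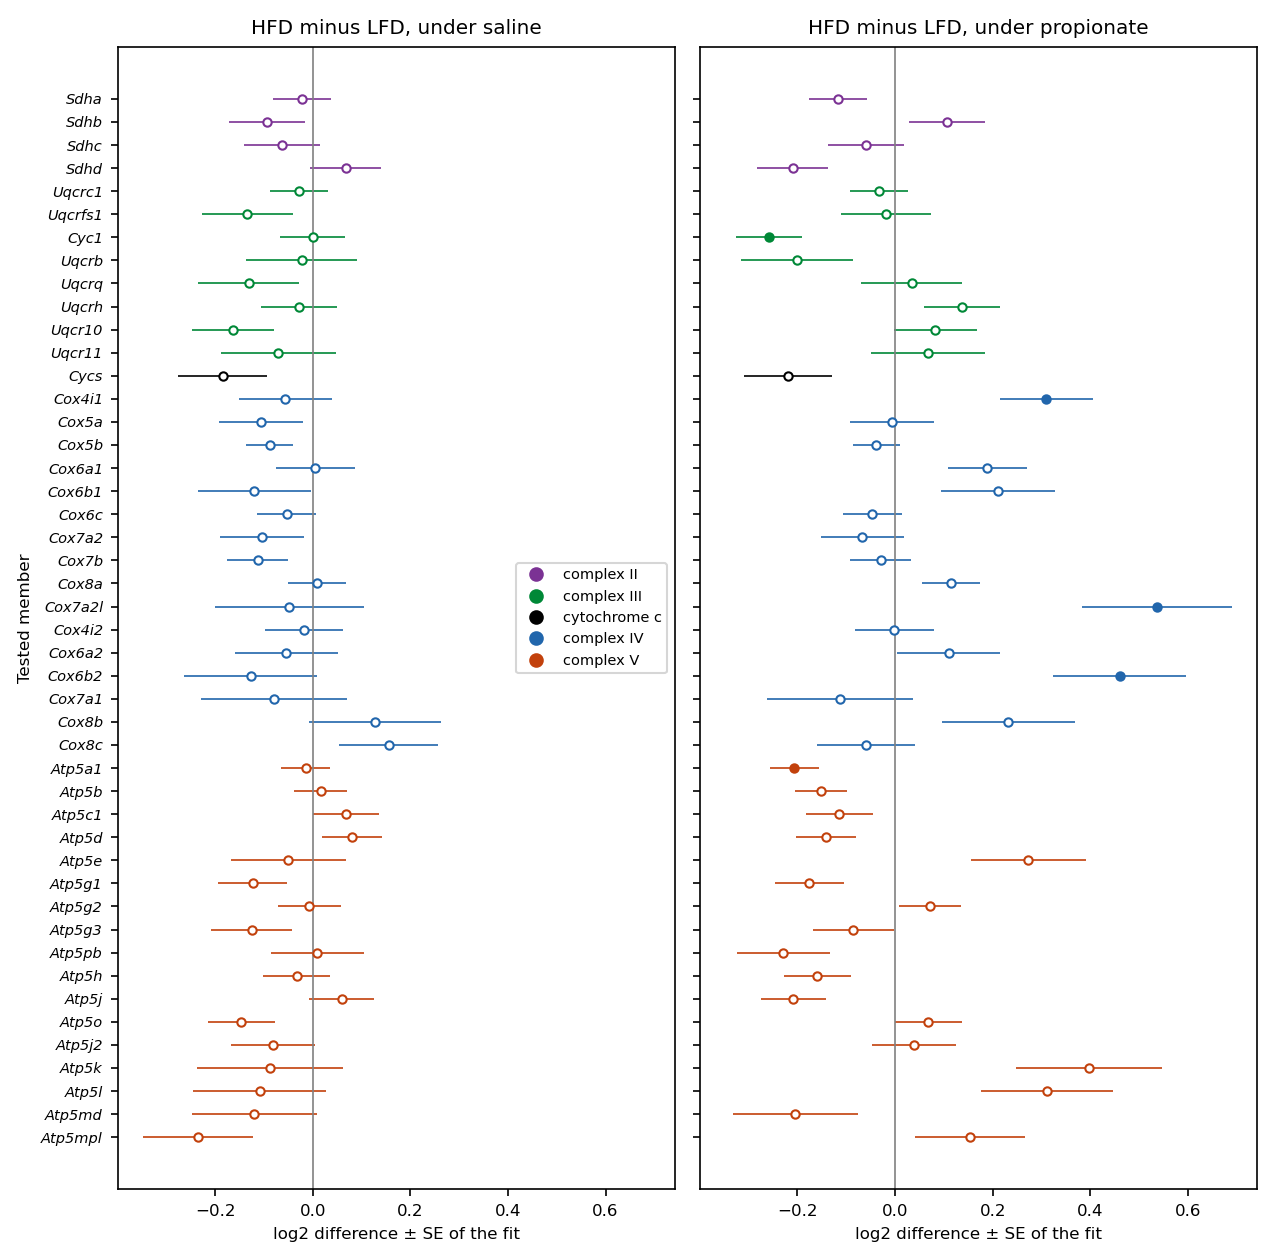
HFD minus LFD as a log2 difference with the standard error of the fit for each of the 46 tested genes, under saline (left) and propionate (right); colour gives the complex and filled points passed the threshold. Under saline no point is filled and the differences run from -0.24 to 0.16, whereas under propionate 5 are filled and they run from -0.26 to 0.54.

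Other transcripts moved with the propionate HFD arrays. The mean of 52 tested small nucleolar RNAs was 7.39 to 8.00 in them, against 6.75 to 7.06 in propionate LFD, and 50 of the 52 had a difference above 0 between the diets under propionate (median 0.65). At the adjusted threshold, 32 of the 52 were called higher, where 2.05% of all genes were. Of 69 tested cytosolic ribosomal protein genes, 63 were above 0 and 14 were called higher. The first saline LFD array, where most of the 46 genes were high, had a small nucleolar RNA mean of 7.77. In propionate against acetate on LFD, 50 of the 52 were below 0 (median -0.30). On LFD without propionate, single arrays reached 11.62 for Atp5a1, 5.36 for Cox6b2 and 11.11 for Cox4i1, each inside that gene's propionate HFD range. The highest Cox7a2l level on LFD was also inside its range, and the lowest Cyc1 level, 10.32, was just above its range. Apart from Cyc1, such levels were thus not particular to propionate HFD. The 15 small-intestinal lipid genes averaged 8.14 in propionate LFD 2 and 6.11 to 6.36 in the other propionate arrays. The 3 tested distal colon genes ran from 6.88 to 7.24 on LFD and from 6.45 to 7.01 on HFD. The part of these in the results was not tested. Without the 4 arrays high in small-intestinal genes, 4 of the 5 genes stayed past the threshold, and Cox4i1 (0.30) did not.

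The 5 calls rest on few arrays. None of the 46 genes passed without propionate LFD 3 or 4 or without propionate HFD 2 or 3, 1 passed without propionate LFD 1, and 8 passed without propionate HFD 1. Calls over all 12795 genes swung in the same way, from 11 to 1731 over the 8 cases of leaving out a propionate array. The directions of the 5 were unchanged in all of these, with Cox7a2l between 0.47 and 0.63 and Cyc1 between -0.29 and -0.24.

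The difference between the diets under propionate was not shown to differ from that under saline. In the test of the propionate response on HFD minus that on LFD, 0 of 46 genes and 0% of all genes passed by limma, and the smallest adjusted p among the 46 was 0.206, for Cox6b2 (0.59 ± 0.192). There were 14 of 46 (30.4%) at an unadjusted p under 0.05, where all genes gave 12.8%. Cox7a2l gave 0.58 ± 0.216 (adjusted p = 0.258), Cyc1 -0.26 ± 0.0946 (0.257) and Atp5a1 -0.19 ± 0.0715 (0.26). The acetate and butyrate responses also passed in 0 of 46 genes and 0% of all genes, with 0 of 46 at an unadjusted p under 0.05 in either, against 0.844% and 2.27% of all genes. The unadjusted 95% interval of an interaction had a median half-width of 0.242 over the 46 genes.

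On HFD, propionate against saline called 0 of 46 genes and 0% of all genes by limma. At an unadjusted p under 0.05 there were 8 of 46 genes (17.4%), where all genes gave 11.7%. Cyc1 came first, with the 4 propionate arrays already given against 10.34, 10.57, 10.36 and 10.57 under saline. Every propionate array was lower, by -0.23 ± 0.0669 (adjusted p = 0.256). Cox7a2l, at 8.01, 8.14, 8.12 and 7.85 under saline, was higher in every propionate array, by 0.45 ± 0.153 (adjusted p = 0.295). Atp5j (-0.20, adjusted p = 0.286), Cox6b2 (0.39, 0.295) and Atp5a1 (-0.13, 0.309) followed. Groups did not overlap in 4 of 46 genes (8.7%), against 4.71% of all genes. These comparisons share the propionate HFD arrays with the diet comparison under propionate.

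Beside these, 7 of 8 tested smooth muscle genes were at an unadjusted p under 0.05 between propionate and saline on HFD, against 11.7% of all genes. Their median difference was -0.81, saline HFD 1 and 2 being the high arrays. Against the same saline arrays, 6 of 8 were under 0.05 for acetate (median -0.87) and 5 of 8 for butyrate (-0.70). All genes gave 2.51% and 4.01% there, so the smooth muscle difference was not particular to propionate. The 52 small nucleolar RNAs had a median difference of 0.56 between propionate and saline on HFD. The part of either in the values above was not tested.

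Acetate and butyrate on HFD left the same machinery without a call, at 0 of 46 genes and 0% of all genes each. For acetate the leading genes were Cox6a1 (-0.18 ± 0.0807), a subunit of complex IV, Atp5l (-0.30 ± 0.136), Sdhb (-0.13), Atp5k (-0.24) and Uqcr11 (-0.19), a small subunit of complex III, all at a limma adjusted p of 1.00. For butyrate, Cox6a1 (-0.20 ± 0.0807), Cox8a (-0.13), Uqcr11 (-0.22), Atp5l (-0.18) and Atp5e (-0.14) led, also at an adjusted p of 1.00. At an unadjusted p under 0.05, each acid had 2 of 46 genes (4.35%), against 2.51% of all genes for acetate and 4.01% for butyrate. Cox6a1 read 10.71, 10.85, 10.47 and 10.62 under saline, 10.49, 10.54, 10.52 and 10.38 under acetate and 10.55, 10.45, 10.51 and 10.35 under butyrate on HFD. Both acids overlapped saline, the third saline array being low. The part of the smooth muscle difference from saline, given above for both acids, was not tested.

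Between the acids on HFD, no gene of the 46 passed, and the widest differences were in the pairs with propionate. Butyrate against propionate on HFD called 0 of 46 genes and 0.0625% of all genes, with 13 of 46 (28.3%) at an unadjusted p under 0.05 against 17.3% of all genes. Atp5a1 read 11.73, 11.83, 11.73 and 11.78 under butyrate, all above the propionate arrays, a difference of 0.17 ± 0.0506 (limma, adjusted p = 0.103). Cox6a1 under butyrate was below every propionate array, which read 10.78, 10.90, 10.57 and 10.70, by -0.27 ± 0.0807 (adjusted p = 0.106). Cox7a2l (-0.49 ± 0.153, 0.125), Cox4i1 (-0.29, 0.139) and Atp5l (-0.40, 0.14) followed. Of the 13, 11 were lower under butyrate, which is 23.9% of the 46 against 4.57% of all genes. These values rest on the same propionate HFD arrays as the comparisons with propionate above, as do those of propionate against acetate below.

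Propionate against acetate on HFD also called 0 of 46 genes and 0% of all genes, with 14 of 46 (30.4%) at an unadjusted p under 0.05 against 13.2% of all genes. Atp5l differed by 0.52 ± 0.136 (limma, adjusted p = 0.101), Cox4i1 by 0.35 ± 0.0952 (0.121) and Atp5k by 0.51 ± 0.150 (0.138). Cox4i1 and Atp5k had every propionate array above every acetate array. Butyrate and acetate on HFD differed in 0 of 46 genes even at an unadjusted p under 0.05, where all genes gave 3.64%, and the largest difference was 0.12. The acids differ in the length of the carbon chain, acetate having the shortest and butyrate the longest, and were given at a matched dose and time. The 6 acid pairs over both diets gave no call among the 46 genes. The unadjusted 95% interval for 2 groups of 4 had a median half-width of 0.171 over the 46 genes.

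**Figure D4:**
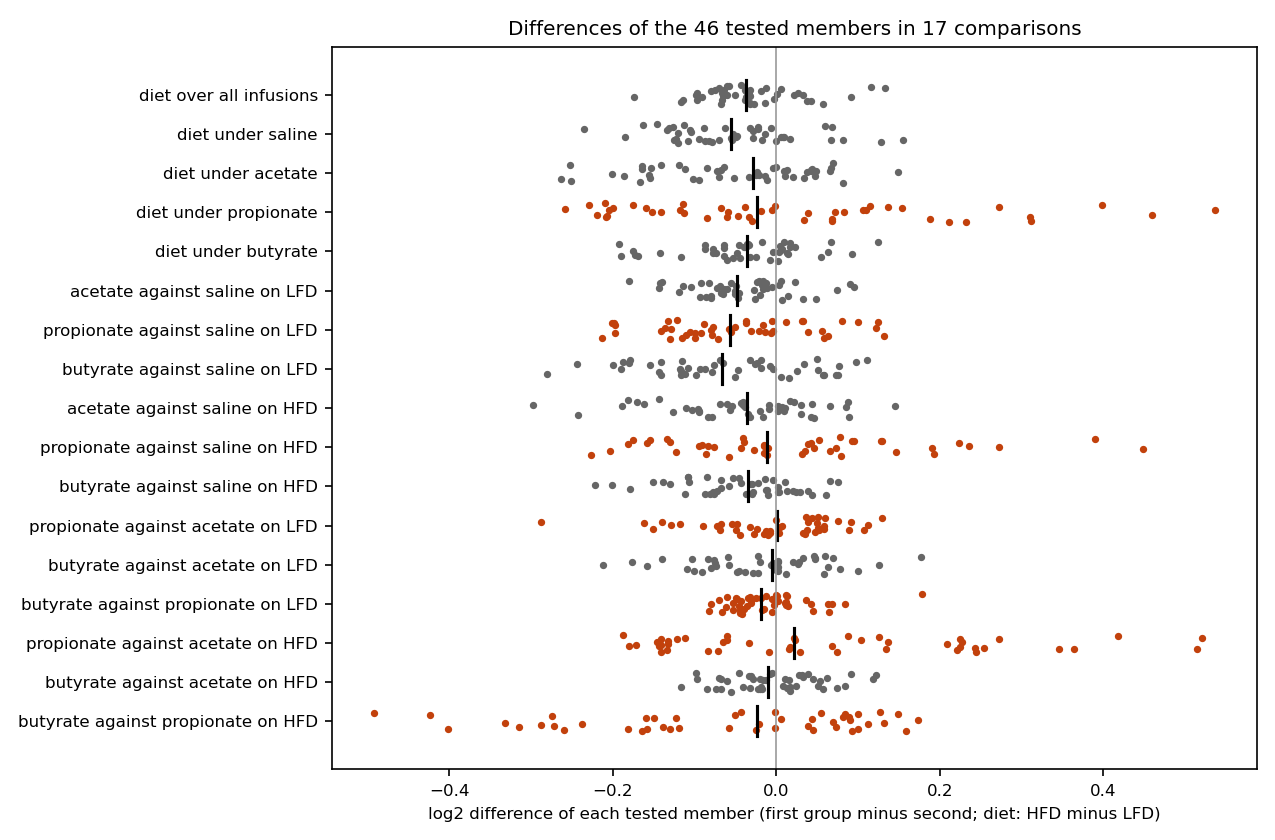
Each point is 1 of the 46 tested genes in 1 of 17 comparisons (rows), placed at its log2 difference, with the median as a vertical bar; comparisons that involve propionate are orange. The medians lie between -0.07 and 0.02, and the points spread most where propionate HFD is 1 of the groups, up to an SD of 0.194.

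On LFD none of the 3 acids called any of the 46 genes against saline, nor any of all genes tested (0%). At an unadjusted p under 0.05 the counts among the 46 were 0 for acetate, 0 for propionate and 3 (6.52%) for butyrate, against 1.51%, 3.81% and 2.8% of all genes. The butyrate genes were Atp5o of the stalk (-0.19), the small membrane subunit Atp5mpl (-0.28) and Uqcr10 of complex III (-0.18), each at a limma adjusted p of 1.00. Medians over the 46 genes were -0.05, -0.06 and -0.07, with 36, 34 and 33 of 46 below 0. Without the first saline LFD array they were 0.02, 0.02 and 0.00, so the lower side of these acids rested on that array. Pairwise comparisons of the acids on LFD called 0 of 46 genes and 0% of all genes. They had 0 of 46 at an unadjusted p under 0.05, against 3.7% of all genes for propionate against acetate, 1.4% for butyrate against acetate and 3.62% for butyrate against propionate.

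The diets under saline, acetate and butyrate likewise called 0 of 46 genes and 0% of all genes by limma. The counts at an unadjusted p under 0.05 were 2, 1 and 1 of 46, against 7.28%, 7.71% and 3.67% of all genes. Under saline, Atp5o (-0.15), Atp5mpl (-0.24) and Cycs (-0.18) came first, at adjusted p from 0.677 to 0.685, and 36 of 46 genes were below 0 with a median of -0.06. That median was 0.01 without the first saline LFD array. The mean over the 46 genes was 9.89 ± 0.138 in saline LFD, 9.84 ± 0.00776 in propionate LFD, 9.83 ± 0.0584 in saline HFD and 9.85 ± 0.0927 in propionate HFD (SD, n = 4 each).

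**Figure D5:**
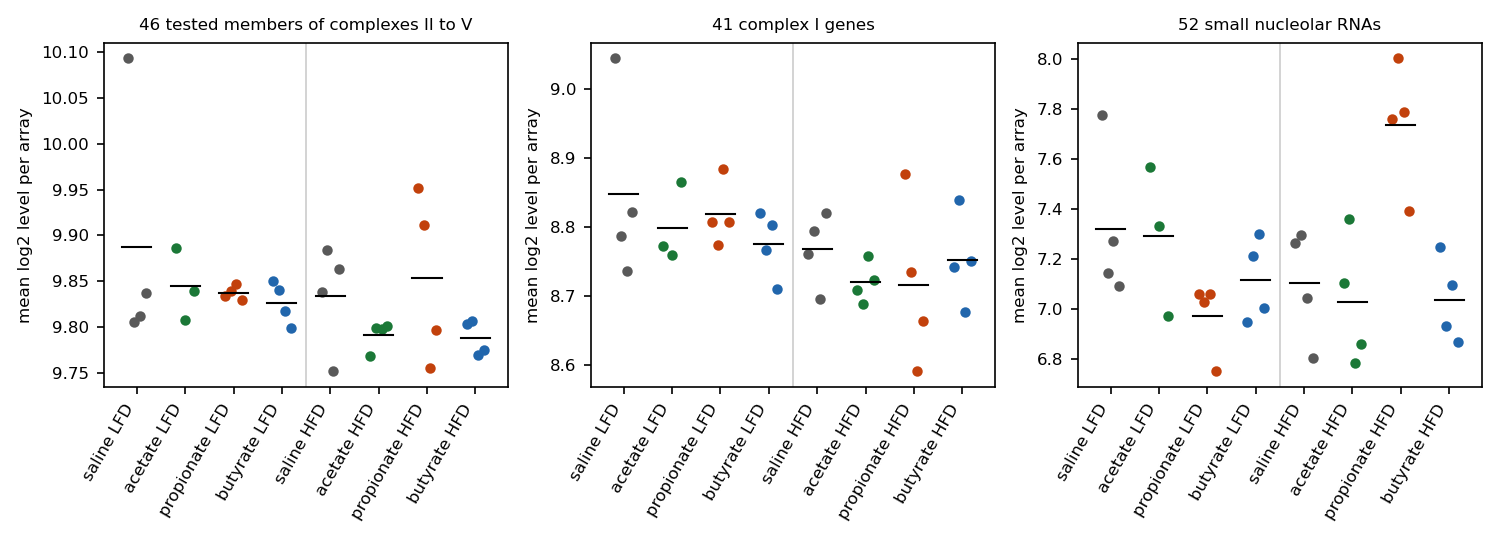
Mean log2 level per array (points) and per group (bars) of the 46 tested genes, of 41 complex I genes and of 52 small nucleolar RNAs, by infusion on LFD (left of the line) and HFD (right). The first saline LFD array is at 10.09 in the left panel, and the propionate HFD arrays reach 7.39 to 8.00 in the right panel.

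Genes that work beside these complexes were called on the lower side. The shares of all genes tested to set these counts against are 4.82% called lower and 2.05% called higher under propionate, and 1.16% lower and 1.53% higher over all infusions. Under propionate, 5 of 36 tested assembly factors were called lower on HFD and 0 higher, with 29 of the 36 differences below 0 and 7 above it. Among the 5 were Sco1, which delivers copper to complex IV (-0.35 ± 0.0975, limma, adjusted p = 0.0334), Lrpprc, which stabilises mitochondrial messenger RNAs (-0.29 ± 0.0823, 0.0371), and Cox11, a copper factor (-0.24 ± 0.0689, 0.0392). Sco1 was also the 1 assembly factor lower on HFD over all infusions (-0.19 ± 0.0497, adjusted p = 0.0391). Of 16 tested genes of the tricarboxylic acid cycle, 6 were called lower under propionate and 0 higher, with 14 differences below 0 and 2 above it, led by Dlst (-0.33, 0.0156), Dld (-0.49, 0.0156), Mdh2 (-0.24, 0.0172) and Idh3a (-0.46, 0.02), with a median of -0.23. Of 15 genes that feed coenzyme Q, 11 were below 0 there and 2 were called lower, Coq5 of its synthesis (-0.56, 0.0133) and Dhodh, a pyrimidine enzyme that passes it electrons (-0.28, 0.0281). Over all infusions Dhodh (-0.16, 0.0235) and Gpd2 (-0.23, 0.0278) were the 2 lower genes of that list. A list of subunits of complexes II to V outside the symbol rule had 3 tested genes, all below 0 under propionate. Of these, Higd2a was called lower under propionate (-0.19 ± 0.0592, limma, adjusted p = 0.0467), and 0 were called over all infusions. The 16 tested regulators of mitochondrial biogenesis and the 9 carriers of ADP, ATP and phosphate had 0 calls in either comparison.

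Complex I, the entry point for electrons from NADH, and the mitochondrial ribosome, which makes the subunits encoded by mitochondrial DNA, were also called mainly on the lower side. Over all infusions, 0 of 41 complex I genes and 5 of 74 mitochondrial ribosomal protein genes were called, the latter all lower and led by Mrps27 (-0.24, adjusted p = 0.0241), with medians of -0.07 and -0.09. Under propionate, 5 of 41 complex I genes were called lower and 1, Ndufa7, higher (0.37, limma, adjusted p = 0.02), with 31 differences below 0 and 10 above it. Of 74 mitochondrial ribosomal protein genes, 14 were called lower and 0 higher, with 57 below 0 and 17 above it. The shares over all genes are those just given, 4.82% and 2.05%. The medians were -0.12 and -0.14, against -0.02 for the 46 genes of complexes II to V. The lists were not tested against each other.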

How the data were processed

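The authors deposited log2 values of 31 single-colour arrays in 1 table, made with RMA per the submitters' processing notes (its version and the build behind the probe annotation: not given in the sources used here). Deposited values span 1.13 to 13.8, and array medians lie within 5.14 to 5.19, so nothing was normalized again. Arrays have no read depth; their number, 3 or 4 per group, limits precision. Of 35556 probe sets, 21218 carry 1 symbol in the platform annotation, 1881 several and 12457 are not listed. Genes with at least 3 arrays at an intensity of 20 or more were tested. limma 3.58.1 (R 4.3.3) fitted 1 mean per group over all 31 arrays, with an intensity trend, and Benjamini-Hochberg adjustment over 12795 genes was applied in each of 20 comparisons, with a threshold of 0.05. The diet contrast averages the 4 infusions equally. Percent changes come from the log2 difference. The script was tested on simulated data.

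The genes, lists and tests were chosen with earlier results of these data known, and so support nothing independently. Genes given with values were those past the threshold, the 5 with the smallest p in the diet, acid against saline on HFD and butyrate against propionate comparisons, the paralogue pairs, the subunit c genes, and the complex II, Cycs and Cyc1 genes. Of the other lists, up to 4 called genes were named. Atp5b, Atp5o, Atp5mpl, Uqcr10 and the members that first come up at extreme levels were named after their values were seen. Probe sets of near-identical copies cannot be told apart. Alternatives were other filters, trend, array weights, normalization, probe set choices, a replicate block and leaving out arrays. Promoter sequences are from RefSeq (GRCm38.p6).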

Additional observations from a re-analysis of the deposited data

Results flagged for a closer look

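In groups of 4 arrays, an array was picked out where its gap to the nearest of the others took up most of the group's range. This held in 7 of 49 groups checked, where the rule picks about 1 in 20 by chance. The mean over the 46 tested genes includes the genes named below, and those genes were called in these same data. The groups checked are therefore not independent, and no excess over 1 in 20 can be read from them. The mean over the 46 tested genes was 10.09 in saline LFD 1, against 9.81 to 9.84 in the rest of its group, and 9.77 in acetate HFD 1, against 9.80 in the other 3. Cox4i1 was 11.11 in saline LFD 1 (10.74 to 10.79 in the others) and 11.10 in saline HFD 2 (10.67 to 10.73). Cox6b2 was 4.70 in butyrate LFD 1, against 4.87 to 4.89. In propionate LFD 2, the array highest in small-intestinal lipid genes, Cox7a2l was 8.24 against 7.81 to 7.86, and Cyc1 was 10.40 against 10.51 to 10.53.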

How the results depend on the processing

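Counts of genes past the threshold moved by over 1.5 times in 2 diet comparisons and in 3 between infusions on HFD. For diet over all infusions, with 1 gene called, the count was 0 with no filter, 0 without the intensity trend, 0 with all probe sets, 0 with quantile normalization repeated, 0 leaving out saline HFD 1 and 2, the arrays rich in smooth muscle transcripts (an alternative chosen after seeing the data), and 3 with array weights. For diet under propionate, with 5 called, it was 3 with no filter, 3 with all probe sets, 3 with only the groups compared and 18 with array weights. Array weights also gave 1 call for propionate against saline, 12 for propionate against acetate and 8 for butyrate against propionate, all on HFD; calls over all genes also rose with array weights in both diet comparisons. The replicate block gave 1 call for propionate against acetate on HFD, and the block moved no other count by over 1.5 times; diet under propionate had 7 calls with it. The deviations of arrays of the same number in different groups had a mean r of 0.0408 over 105 pairs. Arrays of other numbers in different groups had -0.0135 over 315 pairs. Whether the numbers pair the arrays was not tested.

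Leaving out 1 array gave 0 to 2 calls for diet over all infusions, 0 to 8 for diet under propionate, 0 to 3 for propionate against acetate on HFD and 0 to 1 for butyrate against propionate on HFD. Medians over the 46 genes ran from -0.0715 to 0.0248 for acetate, -0.0871 to 0.0156 for propionate and -0.0913 to 0.00409 for butyrate against saline on LFD, from -0.0996 to 0.0111 for diet under saline, from -0.0085 to 0.0881 for the propionate response and from -0.0515 to 0.0686 for the butyrate response on HFD minus LFD. Each of these turned sign without saline LFD 1. Without the 4 arrays high in small-intestinal genes, chosen after seeing the data, medians were -0.17 for diet under saline, -0.15 for propionate and -0.14 for butyrate against saline on LFD, 0.0883 for the acetate response and 0.14 for the propionate response. With those 4 arrays left out, saline LFD holds only its arrays 1 and 4, with means over the 46 genes of 10.09 and 9.84. The cause of the moves in these medians was not tested. None of the 6 called genes changed direction under the alternatives run.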

Other observations

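Some subunits could not be counted among the 47 genes because their probe sets carry a further symbol. The 3 probe sets of Cox7c, a common complex IV subunit, which also carry Gm10012, had means of 12.21, 12.31 and 12.26 and differed by between -0.01 and 0.02 with diet under propionate. The brighter probe set of Uqcrc2, a core protein of complex III, also carries Pdzd9. It had a mean of 11.42 and differed by -0.28 ± 0.0888 with diet under propionate (limma, adjusted p = 0.0619 in the fit over all probe sets), beside Uqcrc1, the other core protein, at -0.03.

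Among the 17 genes with several probe sets, the sign of the difference varied within a gene for 1 with diet over all infusions, 2 with diet under propionate and 6 for propionate against saline on HFD. The 3 probe sets of Cycs gave -0.17, -0.20 and -0.16 for diet over all infusions, with adjusted p of 0.0592, 0.0806 and 0.47 in the fit over all probe sets.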
